A study of Mus musculus with 9 samples.

Results

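Steroids, retinoids and foreign chemicals are made, activated and cleared by a small number of large enzyme families: cytochromes P450 (Cyp), hydroxysteroid dehydrogenases (Hsd), aldehyde dehydrogenases (Aldh), aldo-keto reductases (Akr), retinol and other short-chain dehydrogenases (Rdh and Dhrs), sulfotransferases (Sult) and glucuronosyltransferases (Ugt). The genes described here are every gene of the deposited expression table whose symbol begins with one of these stems and a digit, without Cyp51, Hsd17b7, Hsd11b2 and Aldh1a1. They number 104 of the 15158 genes in the table. They were taken by symbol, whatever their expression. All 104 matched 1 gene of the GENCODE M21 annotation of the mouse genome build mm10.

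The RNA came from mouse uterine luminal epithelium, the cell sheet that lines the uterine cavity and meets the embryo, cut out by laser capture on pregnancy day 4. The study compared 3 genotypes. The mice called ePRBoe (Wnt7acre/+PgrBLsL/+) carry an allele named for isoform B of the progesterone receptor behind a floxed stop, and those called ePRAoe (Wnt7acre/+PgrALsL/+) the matching allele for isoform A. The control, Wnt7acre, carries the cre alone. All 3 groups therefore carry a cre named after Wnt7a, a gene of the uterine epithelium, so an effect of the cre itself is common to them and was not tested. Each group had 3 libraries. Females were kept with their littermates until 8 weeks of age and then mated. Labels call the libraries biological replicates and tie none to a named animal, so the p-values below cover the spread among these samples, which may be technical.

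In retinoid metabolism, dehydrogenases such as Rdh10 oxidise retinol to retinal, Aldh1a enzymes turn retinal into retinoic acid, and the Cyp26 P450s oxidise retinoic acid so that it can be cleared. Hydroxysteroid dehydrogenases interconvert strong and weak steroids, while sulfotransferases and glucuronosyltransferases attach sulfate or glucuronic acid to steroids, phenols and drugs. In the mouse, progesterone acting through its receptor prepares the luminal epithelium for implantation, and Cyp26a1 is known as a luminal epithelial gene of that time.

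Values are FPKM, fragments scaled for transcript length and library size, as deposited. They summed to between 272213 and 314010 per library. Read depth is unknown because no counts were used here, so no counting interval is given. The labels place the libraries in 3 sequencing runs: run 1 held all 3 ePRBoe libraries with ePRAoe replicate 2 and Wnt7acre replicate 3, run 2 held ePRAoe replicate 3 and Wnt7acre replicate 2, and run 3 held ePRAoe replicate 1 and Wnt7acre replicate 1. A comparison with ePRBoe inside a run therefore rests on 1 library of the other genotype. Pgr, which encodes the progesterone receptor, averaged 40.8 ± 4.48 FPKM in ePRBoe, 44.7 ± 4.19 FPKM in ePRAoe and 9.28 ± 7.17 FPKM in Wnt7acre (SD, n = 3 each). Gene values do not separate the isoforms.

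Rows of the deposited table run in alphabetical order of gene symbol except for 4239 of 15158, the fewest whose removal leaves that order. These rows hold 30.2% of the tested genes but 84.8% of the genes called in at least 1 comparison, and 18 of the 21 enzymes so called. Why they are placed so is not given in the sources used here. Genes were taken by symbol and all rows were used, and whether the rows were handled differently before deposit was not tested.

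The 15 luminal epithelial markers were all present and summed to 2121–2343 FPKM in ePRBoe, 1698–2436 FPKM in ePRAoe and 2054–2414 FPKM in Wnt7acre. Markers of other cells were also measured and differed between genotypes. The 19 stromal markers summed to 504–656 FPKM in ePRBoe, 292–478 FPKM in ePRAoe and 124–168 FPKM in Wnt7acre; 16 of them rose in ePRBoe and 13 in ePRAoe. The 14 immune cell markers in the table summed to 407–482 FPKM in ePRBoe, 133–174 FPKM in ePRAoe and 201–418 FPKM in Wnt7acre; 6 of them rose in ePRBoe and 4 fell in ePRAoe, and 6 were called higher in ePRBoe than in ePRAoe directly. The 9 endothelial markers summed to 48.3–69.7 FPKM in ePRBoe, 15.2–32.1 FPKM in ePRAoe and 13–20.4 FPKM in Wnt7acre; 2 of the 7 tested rose in ePRBoe (Cdh5 and Eng). The 6 smooth muscle markers summed to 38–119 FPKM in ePRBoe, 16.6–30.2 FPKM in ePRAoe and 11.7–21.5 FPKM in Wnt7acre, and 1 of the 4 tested rose in ePRBoe (Des). The 7 gland markers summed to 237–298 FPKM in ePRBoe, 294–560 FPKM in ePRAoe and 76–287 FPKM in Wnt7acre, most of it Calb1 by mean, which rose by 1.72 ± 0.45 in ePRAoe (adjusted p = 0.0412). Spink1, another gland marker, averaged 12.7 ± 10.2 FPKM in ePRBoe, 0.961 ± 1.51 FPKM in ePRAoe and 26.7 ± 13.4 FPKM in Wnt7acre and fell by 3.97 ± 0.59 in ePRAoe (adjusted p = 0.0058). No marker was at 0 in every library. The part of these cells in the enzyme results was not tested, and in bulk RNA fewer cells of a type and less RNA per cell cannot be told apart.

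Together the 104 enzymes held 2002, 1760 and 1864 FPKM in ePRBoe, 1282, 1704 and 1914 FPKM in ePRAoe, and 2098, 2171 and 2189 FPKM in Wnt7acre. By summed FPKM, every library of the overexpressing genotypes lay below every Wnt7acre library. As a share of total FPKM, ePRAoe replicate 3 (0.703%) lay above Wnt7acre replicates 1 and 2 (0.692% and 0.697%). This order rests on the uncalled Cyp26a1, which the sums include, at 516, 701 and 610 FPKM in Wnt7acre. It held 237, 104 and 174 FPKM in ePRBoe and 18.7, 204 and 444 FPKM in ePRAoe. With Cyp26a1 taken out of the sums, every ePRBoe library lay above every Wnt7acre library, and ePRAoe overlapped Wnt7acre. Nor does the order hold for every family. The P450s other than families 1 to 4, which include Cyp26a1, summed to 159–294 FPKM in ePRBoe, 62.9–507 FPKM in ePRAoe and 569–748 FPKM in Wnt7acre, where they formed the largest block. The hydroxysteroid dehydrogenases summed to 334–398 FPKM in ePRBoe, 219–364 FPKM in ePRAoe and 239–292 FPKM in Wnt7acre, with ePRBoe above Wnt7acre and no overlap.

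**Figure D1:**
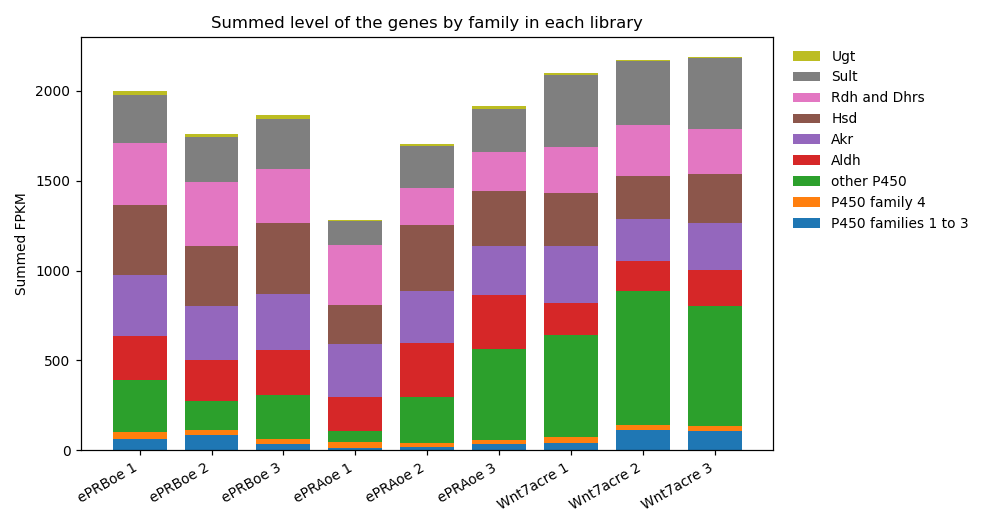
Summed FPKM of the 104 enzyme genes in each library, stacked by gene family, for ePRBoe, ePRAoe and Wnt7acre from left to right. The Wnt7acre bars reach 2098 to 2189 FPKM and the ePRAoe bars 1282 to 1914 FPKM, with the block of other P450s, which include Cyp26a1, tallest in Wnt7acre.

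Of the 104 genes, 68 reached at least 1 FPKM in at least 3 libraries and were tested, together with the rest of the 12347 genes that did so, with limma on log2(FPKM + 1) and sequencing run as a term. Genes with a Benjamini-Hochberg adjusted p under 0.05 over all tested genes were called. In ePRAoe against Wnt7acre, 6 enzymes rose and 10 fell. That is 16 of 68, or 23.5%, where 16.2% of all tested genes were called, 7.2% higher and 8.98% lower. In ePRBoe against Wnt7acre, 8 rose and 4 fell, 12 of 68 or 17.6%, where 8.89% of all tested genes were called, 6.41% higher and 2.48% lower. In ePRBoe against ePRAoe directly, 1 enzyme rose and none fell, where 0.324% of all genes were called, 0.316% higher and 0.0081% lower. At an unadjusted p under 0.05 that last limma comparison gave 14 higher and 2 lower enzymes of 68, where 15.2% of all tested genes were higher and 3.56% lower at that threshold.

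The median log2 fold change of the 68 enzymes against Wnt7acre was 0.34 in ePRBoe, beside 0.10 for all tested genes, and 0.05 in ePRAoe, beside -0.03 for all tested genes. Between ePRBoe and ePRAoe it was 0.39, beside 0.15 for all genes. Both comparisons with Wnt7acre share its libraries. As all ePRBoe libraries are in run 1, the run term also carries part of the ePRAoe difference into the fitted ePRBoe difference. Agreement in direction between them is thus partly built into the fit. A set of 7 enzymes was called in both: Cyp2s1, Dhrs7, Hsd17b2 and Hsd3b7 fell, and Aldh1a2, Akr1b8 and Cyp27a1 rose. They are 43.8% of the enzymes called in ePRAoe and 58.3% of those called in ePRBoe, and 7 of 68 is 10.3% of the tested enzymes. Over all tested genes 664 or 5.38% were called in both, 5.31% in the same direction, making up 33.2% of the ePRAoe calls and 60.5% of the ePRBoe calls. After quantile normalization the ePRBoe calls split into 6 higher and 5 lower. Scaling by median-of-ratios size factors split the calls over all genes in ePRBoe into 618 higher and 477 lower, against 792 and 306 in the values as deposited. It moved the median of all genes to -0.03 in ePRBoe against Wnt7acre and to -0.02 in ePRBoe against ePRAoe.

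**Figure D2:**
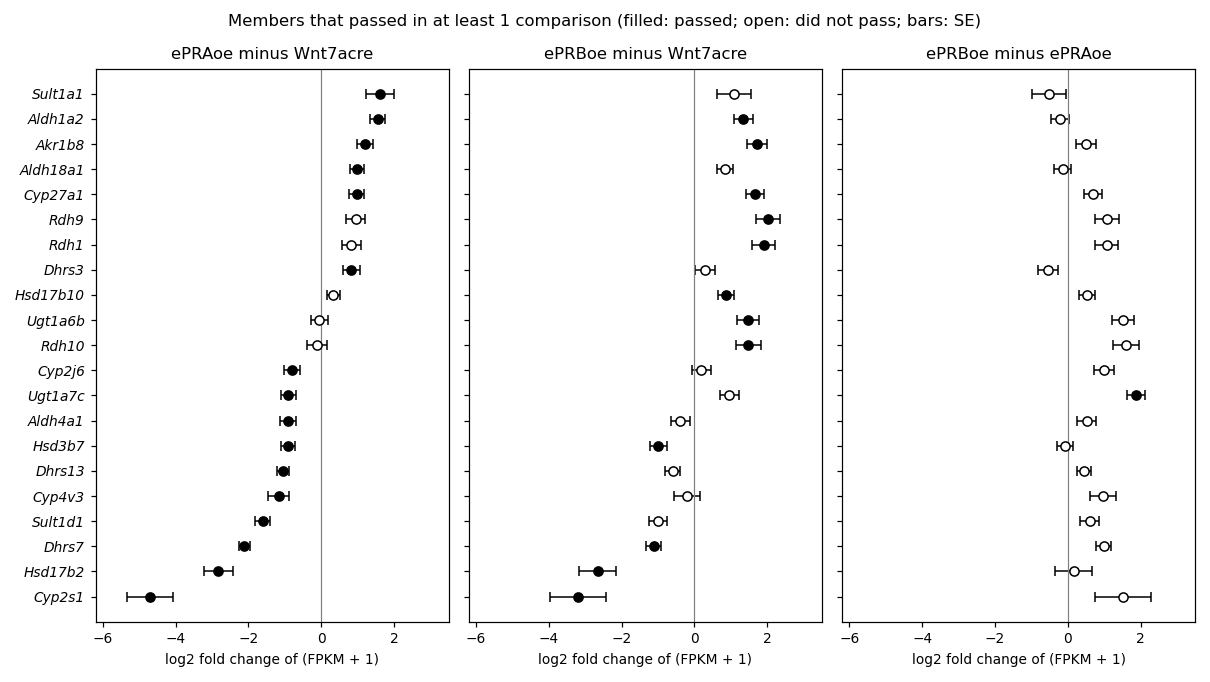
Log2 fold change on the log2(FPKM + 1) scale, with its standard error, of the 21 enzymes called in at least 1 comparison, for ePRAoe minus Wnt7acre, ePRBoe minus Wnt7acre and ePRBoe minus ePRAoe. Filled points passed the adjusted p of 0.05; Cyp2s1 lies farthest from 0 in both comparisons with Wnt7acre, at -4.71 in ePRAoe and -3.19 in ePRBoe.

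Fold changes and standard errors below are on the log2(FPKM + 1) scale, which understates the change of genes near 1 FPKM. Leaving out 1 library of run 2 or run 3 also takes the other library of that run out of the comparison, because the run term then absorbs it. In run 1, leaving out ePRAoe replicate 2 or Wnt7acre replicate 3 likewise gave the same ePRAoe difference from Wnt7acre, as 0.49 for Dhrs3 with either. Without any ePRBoe library the median ePRAoe difference over all genes stayed at -0.03. Fits that share an estimate are not separate checks of the ePRAoe differences. Losses of calls given below come from leaving out 1 library at a time, unless another setting is named.

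Retinoid enzymes came to 17 genes in the table, of which 14 were tested. In ePRBoe 4 of them rose (Rdh1, Rdh9, Rdh10 and Aldh1a2) and none fell. In ePRAoe 2 rose (Dhrs3 and Aldh1a2) and none fell. Directly between ePRBoe and ePRAoe none of the 14 was called, with limma adjusted p of 0.0954 for Rdh10, 0.146 for Rdh1 and 0.162 for Rdh9. Each of these passed without ePRAoe replicate 1 or Wnt7acre replicate 1 (limma adjusted p 0.0361–0.0405). Those fits called 544 and 546 genes over the whole table. At an unadjusted p under 0.05 limma counted 5 higher and 1 lower in ePRBoe, where 17.5% of all tested genes were higher and 8.29% lower, and 4 higher and 2 lower in ePRAoe, where 14.6% were higher and 17.2% lower. The median log2 fold change over the 14 was 0.38 in ePRBoe and -0.05 in ePRAoe. Genes for enzymes that form retinal and retinoic acid were among those called higher in ePRBoe, while the retinoic acid hydroxylases Cyp26a1 and Cyp26c1 had lower means in both genotypes without passing the test.

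Because the retinoid genes include the neighbours Rdh1 and Rdh9, which were called together in ePRBoe, and Cyp26a1, known to respond to retinoic acid, the 250 bases before their starts are shown from RefSeq on GRCm38.p6. They lie at chr19:37697558-37697807, chr10:127759513-127759762 and chr10:127776155-127776404, all on the plus strand and written 5′ to 3′. Capitals in Cyp26a1 mark the only match among enzyme promoters to a direct repeat of the retinoic acid receptor hexamer AGNTCA with NNNNN between its copies, here on the reverse strand and ending 16 bases before the start. Capitals in Rdh1 and Rdh9 mark AGAACA or its reverse complement TGTTCT, the hexamer of the progesterone receptor element.
Cyp26a1: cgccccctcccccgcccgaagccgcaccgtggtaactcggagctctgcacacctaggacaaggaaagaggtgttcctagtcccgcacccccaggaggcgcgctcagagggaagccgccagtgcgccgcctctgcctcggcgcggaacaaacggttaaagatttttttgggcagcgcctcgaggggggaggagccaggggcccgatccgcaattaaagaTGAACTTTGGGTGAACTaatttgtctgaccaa
Rdh1: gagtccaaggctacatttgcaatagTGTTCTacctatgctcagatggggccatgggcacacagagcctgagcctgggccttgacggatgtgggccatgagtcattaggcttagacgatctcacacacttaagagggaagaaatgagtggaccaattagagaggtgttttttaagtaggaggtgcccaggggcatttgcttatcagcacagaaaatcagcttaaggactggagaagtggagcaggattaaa
Rdh9: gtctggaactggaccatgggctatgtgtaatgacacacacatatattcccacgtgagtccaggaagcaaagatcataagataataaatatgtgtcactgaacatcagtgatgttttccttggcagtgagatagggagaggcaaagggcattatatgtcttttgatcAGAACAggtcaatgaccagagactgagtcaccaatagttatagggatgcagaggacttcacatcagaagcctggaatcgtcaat
The repeat, which was chosen after the values were seen, was found on either strand in 0.198% of all 32851 promoter windows and in 1 of the 91 windows of the 83 enzymes with an entry. AGAACA or TGTTCT was found in 16.1% of all windows and 17.6% of the enzyme windows, and in 6 of the 20 windows of called enzymes. GCGTG, the core that the aryl hydrocarbon receptor binds, was found on either strand in 28.2% of all windows, 30.8% of the enzyme windows and 8 of those 20. No hexamer can match both AGAACA and AGNTCA, on either strand. Hsd17b2 had no entry, and Cyp2s1 held none of the 3 motifs in its window. Such matches describe letters only.

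Rdh10, the main retinol dehydrogenase of the embryo, is at chr1:16105774-16133734. It held 108, 130 and 94.6 FPKM in ePRBoe, 103, 25.8 and 39.7 FPKM in ePRAoe, and 67.9, 37.6 and 53.2 FPKM in Wnt7acre. All ePRBoe libraries lay above all Wnt7acre libraries, and ePRAoe replicate 1 alone of its group lay among the ePRBoe values. In ePRBoe Rdh10 rose by 1.48 ± 0.35 on the log2 scale (2.79-fold, adjusted p = 0.04), and in ePRAoe the difference was -0.12 ± 0.28 (adjusted p = 0.82). Within the 3 runs the ePRAoe differences were -1.02, 0.08 and 0.59. Inside run 1, against 1 Wnt7acre library, the ePRBoe difference of Rdh10 was 1.03, below the fitted 1.48. The ePRBoe call was lost without ePRBoe replicate 1, 2 or 3, ePRAoe replicate 2 or 3, or Wnt7acre replicate 2 (adjusted p 0.0737–0.109), and after quantile normalization, after rescaling to TPM and with no run term (0.0536–0.129). Without Wnt7acre replicate 3 the difference was 2.38 (adjusted p = 0.0324).

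Rdh9 lies 8088 bases beyond Rdh1 on chromosome 10, both encoding short-chain dehydrogenases of the mouse retinol dehydrogenase cluster. Rdh9 held 19.9, 15.7 and 22.5 FPKM in ePRBoe, 16.6, 7.35 and 4.17 FPKM in ePRAoe, and 4.11, 2.65 and 4.68 FPKM in Wnt7acre. Rdh1 held 8.89, 7.64 and 6.96 FPKM in ePRBoe, 6.26, 2.93 and 0.919 FPKM in ePRAoe, and 1.49, 0.547 and 1.52 FPKM in Wnt7acre. For both genes the ePRBoe and Wnt7acre libraries did not overlap, and ePRAoe replicate 1 was again the highest of its group. Rdh9 rose by 2.02 ± 0.33 (4.07-fold, adjusted p = 0.0133) in ePRBoe, and Rdh1 by 1.90 ± 0.30 (3.72-fold, adjusted p = 0.0127). In ePRAoe the differences were 0.95 ± 0.27 for Rdh9 (adjusted p = 0.0513) and 0.83 ± 0.25 for Rdh1 (adjusted p = 0.0599), positive in each of the 3 runs, and both passed with median-of-ratios scaling (0.98 and 0.86). Both ePRBoe calls were lost without ePRAoe replicate 2 or Wnt7acre replicate 3, at adjusted p 0.0609–0.0767 for Rdh9 and 0.0596–0.0956 for Rdh1. Exons of both genes overlap the annotated Rdh16f1 on the same strand, by up to 1879 bases for Rdh9 and 464 for Rdh1, so the reads of these copies may be split and their values are uncertain.

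Dhrs3, a reductase that turns retinal back into retinol, was called in ePRAoe. It held 22.4, 29 and 29.3 FPKM in ePRBoe, 57.2, 50.1 and 34 FPKM in ePRAoe, and 35.9, 27 and 16.9 FPKM in Wnt7acre. ePRAoe and Wnt7acre overlapped at ePRAoe replicate 3 and Wnt7acre replicate 1. Dhrs3 rose by 0.83 ± 0.23 in ePRAoe (1.78-fold, adjusted p = 0.0463), with 0.29 ± 0.28 in ePRBoe (adjusted p = 0.568). This call was lost without any 1 of the 9 libraries, at adjusted p 0.052–0.176, and with no filter, no run term or only the 2 genotypes compared (0.0542–0.102), and the difference was 0.49 without ePRAoe replicate 2 or Wnt7acre replicate 3.

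Aldh1a2 makes retinoic acid from retinal and is known from the stroma of the mouse uterus. Its values were 24.7, 17.6 and 28.2 FPKM in ePRBoe, 14.3, 23.3 and 35.7 FPKM in ePRAoe, and 3.96, 9.06 and 9.87 FPKM in Wnt7acre. Every ePRBoe and ePRAoe library lay above every Wnt7acre library, while the overexpressing genotypes overlapped. Aldh1a2 rose by 1.34 ± 0.26 in ePRBoe (2.53-fold, adjusted p = 0.0211) and rose by 1.55 ± 0.21 in ePRAoe (2.93-fold, adjusted p = 0.00447). The ePRAoe call held without any 1 library, and the ePRBoe call was lost without ePRBoe replicate 1 or 3, ePRAoe replicate 2 or Wnt7acre replicate 3 (adjusted p 0.0617–0.0843). Inside run 1, against 1 Wnt7acre library, the ePRBoe difference of Aldh1a2 was 1.15. The stromal marker sum was higher in the same genotypes, at 504–656 FPKM in ePRBoe and 292–478 FPKM in ePRAoe against 124–168 FPKM in Wnt7acre. The part of stromal RNA in the Aldh1a2 result was not tested.

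Cyp26a1, which oxidises retinoic acid for clearance, had the highest mean of the 104 genes. It held 237, 104 and 174 FPKM in ePRBoe, 18.7, 204 and 444 FPKM in ePRAoe, and 516, 701 and 610 FPKM in Wnt7acre. Wnt7acre did not overlap either other genotype, and the ePRAoe libraries spread far more widely than those of the other genotypes. The log2 differences were -2.27 ± 0.84 in ePRBoe (adjusted p = 0.141) and -2.32 ± 0.69 in ePRAoe (adjusted p = 0.059), neither called. Within runs 1, 2 and 3 the ePRAoe difference was -1.58, -0.66 and -4.72, and without ePRAoe replicate 1 or Wnt7acre replicate 1 it was -1.12. Without Wnt7acre replicate 1 the ePRBoe difference of -1.67 passed (adjusted p = 0.0475).

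Cyp26c1, of the same family, lies 4399 bases before Cyp26a1. It held 7.86, 3.76 and 5.27 FPKM in ePRBoe, 4.54, 3.37 and 14.3 FPKM in ePRAoe, and 14.1, 15.4 and 16.8 FPKM in Wnt7acre. ePRBoe lay below Wnt7acre throughout, and ePRAoe replicate 3 reached the Wnt7acre range. Its differences were -1.05 ± 0.45 in ePRBoe (adjusted p = 0.194) and -1.19 ± 0.37 in ePRAoe (adjusted p = 0.067). Without ePRAoe replicate 3 or Wnt7acre replicate 2 the ePRAoe difference was -1.73 and passed.

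The other tested retinoid genes, the dehydrogenases Rdh5, Rdh11, Rdh12, Rdh13, Rdh14 and Dhrs4 with Aldh1a7, passed in no comparison. Dhrs4 was the highest of them, averaging 67.8 ± 10.9 FPKM in ePRBoe, 55.6 ± 15.7 FPKM in ePRAoe and 58.5 ± 17.4 FPKM in Wnt7acre. Rdh12 spread widely within a genotype, with 0.091, 1.72 and 14 FPKM in ePRAoe. Aldh1a3, Cyp26b1 and Dhrs9 were at most 0.246, 0.204 and 0.405 FPKM in any library and were not tested.

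Among the 11 tested genes that carry, store or receive retinoids, Stra6, Crabp1 and Rarres2 rose in ePRBoe and none fell, leaving aside a gene not reported here. In ePRAoe, Stra6 and Rarres2 rose and Lrat fell. Of all tested genes, 8.89% were called in ePRBoe and 16.2% in ePRAoe. Stra6, the cell surface receptor that takes up retinol, averaged 46.5 ± 10.8 FPKM in ePRBoe, 35.1 ± 12.2 FPKM in ePRAoe and 9.14 ± 2.48 FPKM in Wnt7acre. It rose by 2.29 ± 0.22 in ePRBoe (adjusted p = 0.00317) and rose by 1.80 ± 0.18 in ePRAoe (adjusted p = 0.00208). Lrat, which stores retinol as esters, averaged 2.37 ± 1.62 FPKM in ePRBoe, 0.848 ± 1.10 FPKM in ePRAoe and 10.3 ± 2.45 FPKM in Wnt7acre, and fell by 2.75 ± 0.42 in ePRAoe (adjusted p = 0.00632). The Stra6 and Lrat calls held without any 1 library.

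**Figure D3:**
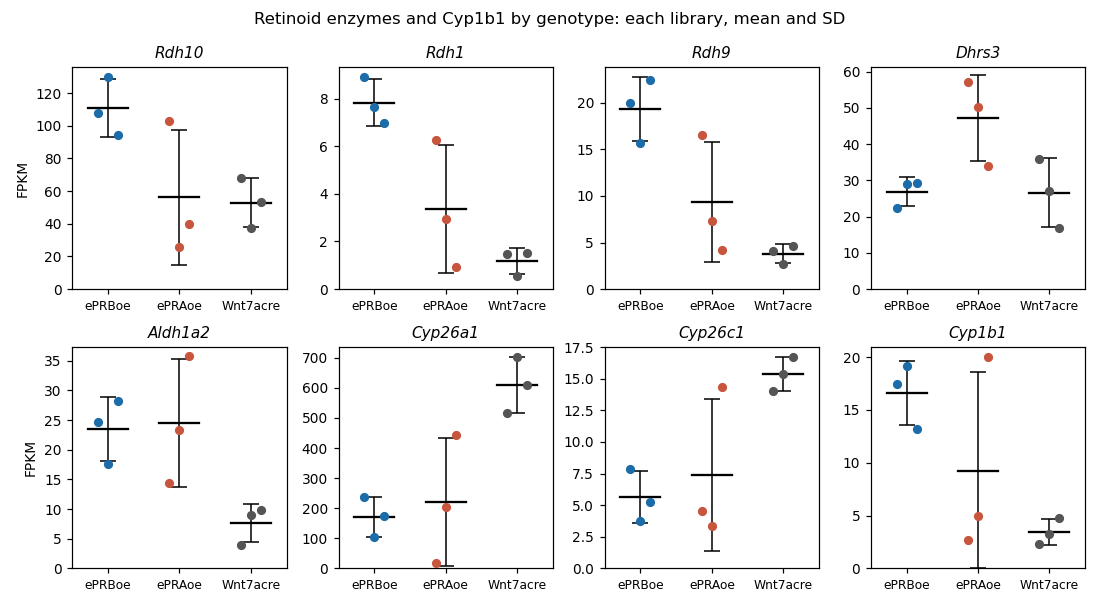
FPKM of 7 retinoid enzymes and Cyp1b1 in each library of ePRBoe, ePRAoe and Wnt7acre, from left to right in each panel; points are libraries, the line is the mean and the bars are the SD, cut at 0. Aldh1a2 is higher in both overexpressing genotypes, Rdh1 and Rdh9 are highest in ePRBoe, and Cyp26a1 is highest in Wnt7acre with ePRAoe spread between 18.7 and 444 FPKM.

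Sex steroid and corticosteroid enzymes numbered 19 in the table and 11 were tested. In ePRBoe 1 rose (Hsd17b10) and 2 fell (Hsd17b2 and Hsd3b7), and in ePRAoe the same 2 fell and none rose. Hsd3b7 stands in this list by its family name and acts in bile acid synthesis, so 1 of the genes that fell, Hsd17b2, acts on sex steroids. At an unadjusted p under 0.05 limma counted 4 higher and 3 lower of the 11 in ePRBoe, where 17.5% of all tested genes were higher and 8.29% lower. It counted 0 higher and 3 lower in ePRAoe, where 14.6% of all tested genes were higher and 17.2% lower. Over the 11 genes the median log2 fold change was 0.45 in ePRBoe and 0.11 in ePRAoe. The enzymes that begin steroid synthesis from cholesterol were barely present: Cyp11a1 and Hsd3b1 were at most 0.339 and 0.983 FPKM in any library and were not tested.

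Hsd17b2 oxidises estradiol to the weak estrogen estrone and in human endometrium is a known epithelial target of progesterone. It lies at chr8:117701904-117759027. It held 0.89, 0.297 and 1.37 FPKM in ePRBoe, 0, 0.238 and 2.08 FPKM in ePRAoe, and 1.9, 30.6 and 13.8 FPKM in Wnt7acre. Wnt7acre replicate 1 lay near the overexpressing genotypes, within the ePRAoe range, while replicates 2 and 3 stood far above. Hsd17b2 fell by 2.66 ± 0.50 in ePRBoe (6.34-fold lower, adjusted p = 0.0205) and fell by 2.82 ± 0.41 in ePRAoe (7.08-fold lower, adjusted p = 0.00542). The ePRAoe call held without any 1 library. The ePRBoe call was lost without ePRBoe replicate 2 or Wnt7acre replicate 3 (adjusted p 0.0608–0.233), and without a run term (0.0511). With a pseudocount of 0.1 the ePRAoe difference was -4.50.

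Hsd3b7, which modifies the sterol ring on the way from cholesterol to bile acids, held 18.8, 13.1 and 15 FPKM in ePRBoe, 14.8, 15.5 and 15.7 FPKM in ePRAoe, and 21.3, 37 and 33.3 FPKM in Wnt7acre. Every Wnt7acre library lay above every other library. It fell by 0.99 ± 0.23 in ePRBoe (1.99-fold lower, adjusted p = 0.0376) and fell by 0.91 ± 0.19 in ePRAoe (1.89-fold lower, adjusted p = 0.0169). The ePRBoe call was lost without replicate 2 or 3 of any genotype (adjusted p 0.0621–0.273), and the ePRAoe call without replicate 2 or 3 of ePRAoe or Wnt7acre (0.0908–0.0914). Its exons overlap the annotated Gm49388 on the same strand by up to 1017 bases, which makes its value uncertain.

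Hsd17b10 encodes a mitochondrial dehydrogenase that oxidises steroids and takes part in isoleucine breakdown. Its values were 185, 155 and 181 FPKM in ePRBoe, 70.9, 131 and 102 FPKM in ePRAoe, and 77.4, 70.6 and 86.6 FPKM in Wnt7acre. ePRBoe lay above both other genotypes with no overlap. It rose by 0.86 ± 0.21 in ePRBoe (1.81-fold, adjusted p = 0.048), with 0.33 ± 0.17 in ePRAoe (adjusted p = 0.239). In ePRBoe the call was lost without any ePRBoe library or without replicate 2 or 3 of ePRAoe or Wnt7acre (adjusted p 0.0755–0.357). It was also lost with a pseudocount of 0.1, without the filter, with a mean of at least 5 FPKM and with median-of-ratios scaling, at up to 0.0968.

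Hsd11b1 regenerates active glucocorticoid from its inactive keto form. It held 6.63, 3.63 and 1.79 FPKM in ePRBoe, 0.526, 6.37 and 1.95 FPKM in ePRAoe, and 7.37, 9.26 and 8.42 FPKM in Wnt7acre. Wnt7acre lay above every other library, though neither difference passed: -1.62 ± 0.56 in ePRBoe (adjusted p = 0.122) and -1.54 ± 0.46 in ePRAoe (adjusted p = 0.0606).

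Hsd17b4, a peroxisomal enzyme of fatty acid oxidation that also acts on estradiol, averaged 131 ± 18.5 FPKM in ePRBoe, 133 ± 32.6 FPKM in ePRAoe and 90.5 ± 41.9 FPKM in Wnt7acre and passed in neither comparison. Nor did Hsd17b11, Hsd17b12, Dhrs11, Akr1c13 and Akr1c19, which averaged between 1.52 and 27.3 FPKM by genotype. Without ePRAoe replicate 1 or Wnt7acre replicate 1, Hsd17b4 passed in ePRAoe at 1.16. Akr1c genes are near copies of each other, so their values are uncertain.

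Cyp1b1, which hydroxylates estrogens and also oxidises retinol, held 17.5, 19.2 and 13.2 FPKM in ePRBoe, 2.65, 4.95 and 20 FPKM in ePRAoe, and 2.36, 3.26 and 4.79 FPKM in Wnt7acre. ePRBoe and Wnt7acre did not overlap, and ePRAoe replicate 3 matched the ePRBoe level while replicates 1 and 2 lay near Wnt7acre. Its difference of 1.98 ± 0.51 in ePRBoe missed the threshold (adjusted p = 0.0525), and 0.82 ± 0.41 in ePRAoe did not pass (adjusted p = 0.22). The ePRBoe difference passed without replicate 1 or 3 of ePRAoe or replicate 1 or 2 of Wnt7acre (values between 1.61 and 2.15), and without a run term at 2.00.

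Cyp27a1, the mitochondrial sterol hydroxylase that makes oxysterols and opens the acidic route to bile acids, was the 1 of 3 tested sterol P450s that was called. It held 9.19, 7.46 and 7.85 FPKM in ePRBoe, 2.48, 4.36 and 5.22 FPKM in ePRAoe, and 1.3, 1.18 and 2.04 FPKM in Wnt7acre. The 3 genotypes did not overlap, with ePRBoe above ePRAoe and ePRAoe above Wnt7acre. It rose by 1.67 ± 0.26 in ePRBoe (3.17-fold, adjusted p = 0.0113) and rose by 0.98 ± 0.21 in ePRAoe (1.97-fold, adjusted p = 0.0204). Between ePRBoe and ePRAoe the difference was 0.69 ± 0.26 (adjusted p = 0.216). In ePRBoe the call was lost without ePRAoe replicate 2 or Wnt7acre replicate 3 (adjusted p 0.0544–0.086), and the ePRAoe call without replicate 2 or 3 of either ePRAoe or Wnt7acre (0.0712–0.0864) and with only the 2 genotypes compared (0.0756).

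Of 15 tested steroid partner genes, which import, cleave or donate to steroid reactions, 1 rose (Slco3a1) and 3 fell (Stard4, Srd5a1 and Ugdh) in ePRAoe, and Stard4 fell in ePRBoe. Called were thus 26.7% of the 15 in ePRAoe and 6.67% in ePRBoe, where 16.2% and 8.89% of all tested genes were called. Stard4, a cholesterol carrier, averaged 5.87 ± 1.37 FPKM in ePRBoe, 5.67 ± 1.41 FPKM in ePRAoe and 16.3 ± 1.41 FPKM in Wnt7acre. It fell by 1.22 ± 0.27 in ePRBoe (adjusted p = 0.0317) and fell by 1.40 ± 0.22 in ePRAoe (adjusted p = 0.00675). Its ePRAoe call held without any 1 library, and its ePRBoe call was lost without ePRBoe replicate 2 or 3 or Wnt7acre replicate 3 (adjusted p 0.0836–0.323). Srd5a1, the reductase of testosterone and progesterone, averaged 20.7 ± 7.06 FPKM in ePRBoe, 19.1 ± 13.4 FPKM in ePRAoe and 97.3 ± 56 FPKM in Wnt7acre. It fell by 2.26 ± 0.61 in ePRAoe (adjusted p = 0.0439), a call lost without any ePRBoe library or without replicate 2 or 3 of ePRAoe or Wnt7acre (0.06–0.212).

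Sult1d1, a sulfotransferase of catecholamines and phenols, was the third most abundant of the enzymes. It held 197, 172 and 189 FPKM in ePRBoe, 78, 128 and 152 FPKM in ePRAoe, and 362, 337 and 354 FPKM in Wnt7acre. The 3 genotypes did not overlap, with Wnt7acre highest and ePRAoe lowest. It fell by 1.60 ± 0.21 in ePRAoe (3.03-fold lower, adjusted p = 0.00413), and this call held without any 1 library. In ePRBoe the difference of -0.998 ± 0.26 missed the threshold (adjusted p = 0.0522). It passed there without replicate 1 or 3 of ePRAoe or replicate 1 or 2 of Wnt7acre (between -1.11 and -0.85), and with median-of-ratios scaling (-1.15).

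Sult1a1, the general phenol sulfotransferase, ran the other way. It held 60.7, 71.4 and 86.6 FPKM in ePRBoe, 45.1, 103 and 84.7 FPKM in ePRAoe, and 32.6, 11 and 33.8 FPKM in Wnt7acre. All Wnt7acre libraries lay below all others. It rose by 1.62 ± 0.38 in ePRAoe (3.08-fold, adjusted p = 0.0279), with 1.10 ± 0.47 in ePRBoe (adjusted p = 0.191). The ePRAoe call was lost without replicate 2 or 3 of ePRAoe or Wnt7acre (adjusted p 0.0943–0.114) and with only the 2 genotypes compared (0.0596), with a value of 1.02 without ePRAoe replicate 3 or Wnt7acre replicate 2. Sult1a1 passed in ePRBoe at 1.39 without ePRAoe replicate 1 or Wnt7acre replicate 1. Over all sulfotransferases the summed level was 252–282 FPKM in ePRBoe, 133–241 FPKM in ePRAoe and 355–400 FPKM in Wnt7acre.

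**Figure D4:**
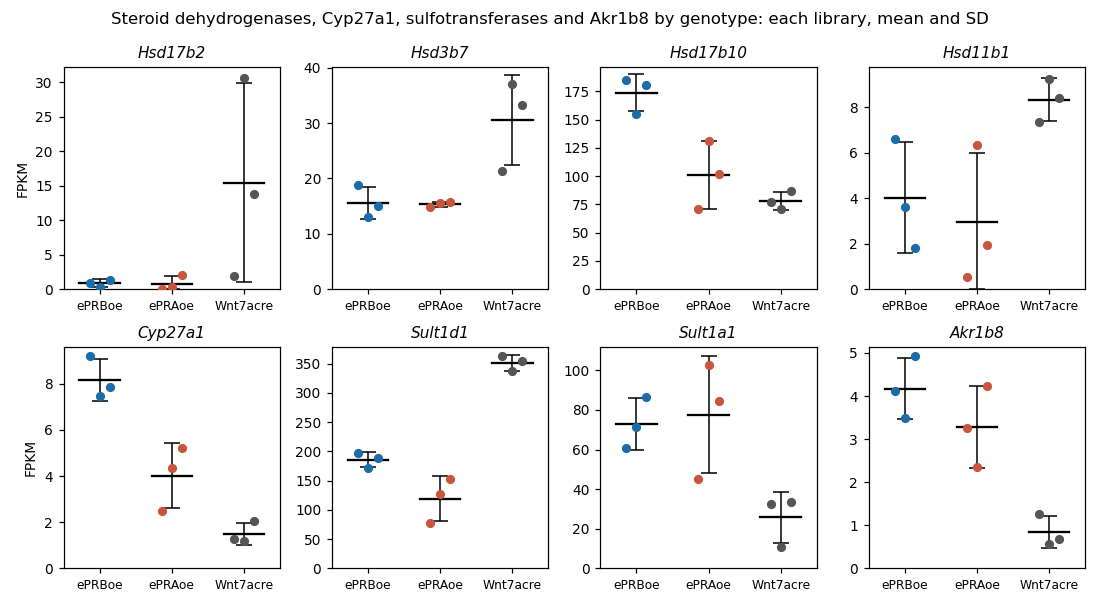
FPKM of steroid and sterol enzymes, sulfotransferases and Akr1b8 in each library of ePRBoe, ePRAoe and Wnt7acre, from left to right in each panel; points are libraries, the line is the mean and the bars are the SD, cut at 0. Sult1d1 is 337 to 362 FPKM in Wnt7acre and at most 197 FPKM elsewhere, while Sult1a1 is at most 33.8 FPKM in Wnt7acre and at least 45.1 FPKM elsewhere.

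Cyp2s1 encodes an epithelial P450 that is inducible through the aryl hydrocarbon receptor, the sensor of dioxin-like chemicals, and that can oxidise retinoic acid. It lies at chr7:25802475-25816913 on the minus strand. It held 16.6, 3.54 and 2.26 FPKM in ePRBoe, 0.435, 0.638 and 1.89 FPKM in ePRAoe, and 16.5, 85.9 and 78.4 FPKM in Wnt7acre. All ePRAoe libraries lay under 2 FPKM and below every Wnt7acre library, whereas ePRBoe replicate 1 lay at the level of Wnt7acre replicate 1. Cyp2s1 fell by 3.19 ± 0.77 in ePRBoe (9.13-fold lower, adjusted p = 0.0446) and fell by 4.71 ± 0.63 in ePRAoe (26.1-fold lower, adjusted p = 0.0044), the largest change of any tested enzyme.

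Within runs 1, 2 and 3 the Cyp2s1 difference in ePRAoe was -5.60, -4.91 and -3.61, and within run 1 it was -3.64 in ePRBoe. The ePRAoe call held without any 1 library. In ePRBoe the call was lost without ePRBoe replicate 2 or 3 or without replicate 2 or 3 of ePRAoe or Wnt7acre (adjusted p 0.0819–0.362). It was also lost with a pseudocount of 0.1, with no filter, with a mean of at least 5 FPKM, after rescaling to TPM and with only the 2 genotypes compared (0.0501–0.0741). Between ePRBoe and ePRAoe the difference was 1.52 ± 0.77 (adjusted p = 0.33). A non-coding gene annotated on the opposite strand, Gm26707, shares up to 260 exon bases with Cyp2s1, and whether strand was used in counting is not given here.

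The other tested P450s of families 1 to 4 were mostly uncalled. Cyp4v3, a fatty acid hydroxylase, held 10.2, 7.11 and 4.25 FPKM in ePRBoe, 2.6, 2.78 and 4.72 FPKM in ePRAoe, and 9.57, 7.83 and 8.54 FPKM in Wnt7acre. ePRAoe lay below Wnt7acre with no overlap, and ePRBoe spanned both. It fell by 1.17 ± 0.30 in ePRAoe (2.26-fold lower, adjusted p = 0.0374), with -0.21 ± 0.37 in ePRBoe (adjusted p = 0.771). Cyp2j6, which makes epoxides of arachidonic acid, held 4.08, 4.84 and 4.12 FPKM in ePRBoe, 2.29, 1.18 and 2.92 FPKM in ePRAoe, and 4.06, 4.21 and 4.76 FPKM in Wnt7acre. Its ePRAoe libraries lay below all others. Cyp2j6 fell by 0.81 ± 0.22 in ePRAoe (1.75-fold lower, adjusted p = 0.0428). The Cyp2j6 call was lost without any 1 of the 9 libraries (adjusted p 0.0531–0.173), and with no filter, after rescaling to TPM and with only the 2 genotypes compared (0.0573–0.128), with -0.52 without ePRAoe replicate 2 or Wnt7acre replicate 3. The Cyp4v3 call was lost without any library but ePRBoe replicates 1 and 3 (0.0632–0.158), and after quantile normalization (0.0506). Cyp2j genes are near copies, so the value of Cyp2j6 is uncertain.

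Among 18 tested P450 and aryl hydrocarbon receptor partners, Cyb5b and Gstm1 rose and Ahr, Arnt2 and Nfe2l2 fell in ePRAoe, and Cyb5b rose in ePRBoe. Called were thus 27.8% of the 18 in ePRAoe and 5.56% in ePRBoe, where 16.2% and 8.89% of all tested genes were called. Ahr, the receptor itself, averaged 5.10 ± 0.992 FPKM in ePRBoe, 6.39 ± 2.38 FPKM in ePRAoe and 13.4 ± 0.636 FPKM in Wnt7acre. It fell by 1.02 ± 0.22 in ePRAoe (adjusted p = 0.0222), with -0.99 ± 0.27 in ePRBoe (adjusted p = 0.0656), and the ePRAoe call was lost without replicate 2 or 3 of ePRAoe or Wnt7acre (0.0937–0.112). Arnt2, a partner subunit of that receptor class, averaged 17.1 ± 8.24 FPKM in ePRBoe, 8.23 ± 9.28 FPKM in ePRAoe and 53 ± 15.7 FPKM in Wnt7acre, and fell by 2.99 ± 0.43 in ePRAoe (adjusted p = 0.00527), also without any 1 library.

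Dhrs7, a membrane-bound short-chain dehydrogenase, gave the lowest adjusted p of the enzymes. It held 12.1, 9.97 and 8.04 FPKM in ePRBoe, 5.19, 4.61 and 6.94 FPKM in ePRAoe, and 26.3, 33.7 and 22.3 FPKM in Wnt7acre. The 3 genotypes did not overlap. Dhrs7 fell by 1.12 ± 0.20 in ePRBoe (2.18-fold lower, adjusted p = 0.0167) and fell by 2.11 ± 0.16 in ePRAoe (4.31-fold lower, adjusted p = 0.00116). The ePRAoe difference was -2.06, -2.13 and -2.14 within runs 1, 2 and 3. Directly between ePRBoe and ePRAoe the difference of 0.99 ± 0.20 did not pass (adjusted p = 0.0825). The ePRAoe call held without any 1 library, and the ePRBoe call was lost without ePRBoe replicate 2, ePRAoe replicate 2 or Wnt7acre replicate 3 (adjusted p 0.0584–0.129).

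Dhrs13, a related dehydrogenase, averaged 5.61 ± 0.799 FPKM in ePRBoe, 4.61 ± 0.983 FPKM in ePRAoe and 10.7 ± 3.21 FPKM in Wnt7acre. It fell by 1.04 ± 0.17 in ePRAoe (2.06-fold lower, adjusted p = 0.00727), a call that held without any 1 library, with -0.60 ± 0.20 in ePRBoe (adjusted p = 0.116). Its antisense gene Dhrs13os shares up to 314 exon bases with it, and reads of the 2 cannot be told apart if strand was not used in counting.

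Aldh18a1, which makes the precursor of proline, held 17.2, 21.3 and 26.3 FPKM in ePRBoe, 18.2, 25.1 and 22.3 FPKM in ePRAoe, and 11, 9.72 and 10.7 FPKM in Wnt7acre. Aldh4a1, which completes proline breakdown, held 8.72, 5.62 and 7.82 FPKM in ePRBoe, 5.69, 4.55 and 5.17 FPKM in ePRAoe, and 8.22, 13.6 and 10.3 FPKM in Wnt7acre. ePRAoe did not overlap Wnt7acre for either gene. Aldh18a1 rose by 0.99 ± 0.18 (1.98-fold, adjusted p = 0.0127) and Aldh4a1 fell by 0.91 ± 0.21 (1.88-fold lower, adjusted p = 0.0269) in ePRAoe. In ePRBoe neither passed, at 0.85 ± 0.23 (adjusted p = 0.0582) and -0.39 ± 0.26 (adjusted p = 0.392). Aldh18a1 did pass in ePRBoe without ePRAoe replicate 1 or Wnt7acre replicate 1 (0.92 with either), and without a run term (0.96). Both ePRAoe calls were lost without replicate 2 or 3 of ePRAoe or Wnt7acre, at adjusted p 0.0696–0.0765 for Aldh18a1 and 0.122–0.134 for Aldh4a1, whose call was also lost with only the 2 genotypes compared (0.062).

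Akr1b8, an aldo-keto reductase of aldehydes and retinal, held 4.12, 3.49 and 4.92 FPKM in ePRBoe, 3.26, 2.35 and 4.23 FPKM in ePRAoe, and 1.26, 0.572 and 0.687 FPKM in Wnt7acre. Every Wnt7acre library lay below all others. It rose by 1.72 ± 0.27 in ePRBoe (3.30-fold, adjusted p = 0.012) and rose by 1.21 ± 0.22 in ePRAoe (2.32-fold, adjusted p = 0.0114). In ePRBoe the call was lost without ePRAoe replicate 2 or Wnt7acre replicate 3 (adjusted p 0.0552–0.0798), and the ePRAoe call without ePRAoe replicate 3 or Wnt7acre replicate 2 (0.0533–0.0554). With a pseudocount of 0.1 the ePRAoe difference was 1.88. Akr1a1, the aldehyde reductase with the second highest mean of the set, passed in no comparison and averaged 231 ± 10.2 FPKM in ePRBoe, 218 ± 8.38 FPKM in ePRAoe and 212 ± 38.6 FPKM in Wnt7acre.

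Ugt1a7c and Ugt1a6b belong to the Ugt1a cluster on chromosome 1, whose genes join their own first exon to shared later exons and glucuronidate phenols and drugs. Ugt1a7c held 3.76, 5.29 and 4.08 FPKM in ePRBoe, 0.554, 0.577 and 0.231 FPKM in ePRAoe, and 1.64, 1.94 and 1.55 FPKM in Wnt7acre. The 3 genotypes did not overlap, with ePRBoe above and ePRAoe below Wnt7acre. Ugt1a7c fell by 0.90 ± 0.20 in ePRAoe against Wnt7acre (1.87-fold lower, adjusted p = 0.0237), with 0.96 ± 0.25 in ePRBoe (adjusted p = 0.0539). It was the 1 enzyme called directly between ePRBoe and ePRAoe, at 1.86 ± 0.25 (3.64-fold, adjusted p = 0.0375). That call was lost without any library but ePRAoe replicate 1 and Wnt7acre replicate 1 (adjusted p 0.0665–0.463). It was also lost with no filter, with median-of-ratios scaling, after quantile normalization and after rescaling to TPM (0.0502–0.108). The ePRAoe call was lost without replicate 2 or 3 of ePRAoe or Wnt7acre (0.0686–0.114) and with only the 2 genotypes compared (0.0797). With a pseudocount of 0.1 the 3.64-fold difference stood at 2.95 on the log2 scale and the ePRAoe difference at -1.77, which was -1.42 after rescaling to TPM.

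Ugt1a6b held 4.14, 3.02 and 4.28 FPKM in ePRBoe, 0.497, 0.63 and 1.33 FPKM in ePRAoe, and 1.19, 0.63 and 0.763 FPKM in Wnt7acre. ePRBoe lay above both other genotypes, which overlapped. It rose by 1.47 ± 0.30 in ePRBoe against Wnt7acre (2.77-fold, adjusted p = 0.0263), with 2.22 under a pseudocount of 0.1, and the call was lost without any ePRBoe library, ePRAoe replicate 2 or Wnt7acre replicate 3 (adjusted p 0.0533–0.169), and after quantile normalization (0.0542). Ugt1a6a, of the same cluster, averaged 6.69 ± 2.43 FPKM in ePRBoe, 5.90 ± 2.80 FPKM in ePRAoe and 4.88 ± 2.48 FPKM in Wnt7acre and did not pass. These genes share up to 878 exon bases, so reads can be split among them and each value is uncertain. The immune marker sum was also lowest in ePRAoe (133–174 FPKM) and highest on average in ePRBoe (407–482 FPKM), with 201–418 FPKM in Wnt7acre, and 6 of the 14 immune markers were called higher in ePRBoe than in ePRAoe; its part in the Ugt1a results was not tested.

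**Figure D5:**
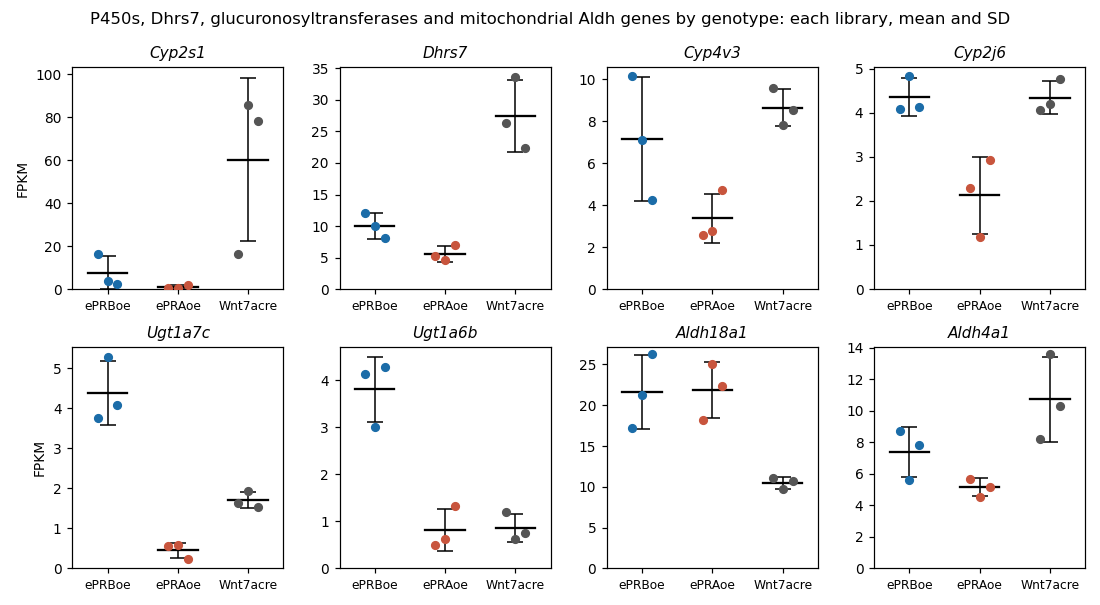
FPKM of P450s, Dhrs7, Ugt1a genes and the proline enzymes Aldh18a1 and Aldh4a1 in each library of ePRBoe, ePRAoe and Wnt7acre, from left to right in each panel; points are libraries, the line is the mean and the bars are the SD, cut at 0. Cyp2s1 is under 2 FPKM in all ePRAoe libraries, and Ugt1a7c falls into 3 separate bands, ePRBoe uppermost.

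In all, 21 of the 68 tested enzymes (30.9%) were called in at least 1 comparison and 47 in none, where 19.7% of all tested genes were called in at least 1. Among the uncalled and abundant were Aldh7a1, a lysine-degrading enzyme at 83.8 ± 5.98 FPKM in ePRBoe, 96.9 ± 31.4 FPKM in ePRAoe and 52.1 ± 18 FPKM in Wnt7acre, and Dhrs1, at 41.4 ± 6.24 FPKM in ePRBoe, 32.9 ± 1.37 FPKM in ePRAoe and 46.1 ± 8.14 FPKM in Wnt7acre. Some tested genes were high in few libraries: Cyp2j11 reached 39 FPKM in ePRBoe replicate 2 and at most 7.03 FPKM elsewhere, and Cyp2f2 reached 14.3 FPKM in Wnt7acre replicate 1. The remaining 36 genes were not tested. Of these, 17 were under 1 FPKM in all 9 libraries, and the highest value of any was 4.63 FPKM, for the progesterone-degrading enzyme gene Akr1c18 in ePRBoe replicate 1.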

How the data were processed

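The deposited table gives FPKM per gene for 9 libraries of laser-captured uterine luminal epithelium. Per the submitters' processing notes, STAR 2.5.2b, the build mm10, featureCounts 1.5.0-p1 of Subread, edgeR 3.28.0 and limma 3.42.2 were used by the authors; what each did, and the annotation, strand use and transcript lengths behind the FPKM values, are not given in the sources used. Counts and read depth were not used here, so no count test was made. Genes at 1 FPKM or more in at least 3 libraries were kept, and log2(FPKM + 1) was fitted with limma 3.58.1 (R 4.3.3, trended variances, two-sided) on genotype and sequencing run over all 9 libraries, so that the genotypes share 1 estimate of the spread. Runs were read from the run names in the labels. P-values were Benjamini-Hochberg adjusted over all 12347 genes, with a threshold of 0.05. The fit was tested on simulated data. Alternatives covered the pseudocount, the filter, scaling, covariates and leaving out libraries.

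Members and lists were chosen with earlier results of these data known. Genes named were Cyp2s1, up to 8 called members per comparison and direction with the largest change (mean 1 FPKM or more in whichever genotype was higher), the 10 most abundant members, tested retinoid and steroid enzymes, and up to 3 partners per list with the lowest adjusted p; Cyp2j6, Cyp2j11, Cyp2f2, Ugt1a6a, Ugt1a7c in ePRAoe and the untested genes were named after their values were seen. Promoter sequences are from RefSeq on GRCm38.p6 and gene positions from GENCODE M21. A gene of the retinoid carrier list is not reported here.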

Additional observations from a re-analysis of the deposited data

Results flagged for a closer look

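Ugt1a7c, a glucuronosyltransferase of the Ugt1a cluster, was the 1 enzyme whose level differed between the overexpressing genotypes by the direct test of that difference, at 1.865 on the log2(FPKM + 1) scale for ePRBoe minus ePRAoe (limma, adjusted p = 0.0375). Its mean was 4.38 ± 0.803 FPKM in ePRBoe, 0.454 ± 0.193 FPKM in ePRAoe and 1.71 ± 0.205 FPKM in Wnt7acre (SD, n = 3 each). It was higher in 3 of 3 ePRBoe libraries than in any ePRAoe library. Later exons are shared with other genes of the cluster. Without any 1 library other than ePRAoe replicate 1 or Wnt7acre replicate 1 the call was lost (adjusted p 0.0665–0.463). It was also lost with each other scaling tried (median-of-ratios, quantile normalization and TPM) and with no filter, at adjusted p 0.0502–0.108.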

How the results depend on the processing

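The comparisons rest on 3 libraries a genotype, on FPKM whose depth is unknown and on a layout in which ePRBoe shares a run with 1 library of each other genotype. Under other settings 2147 enzyme values were compared, many of them of enzymes not called. None of the 29 calls changed sign, while values of uncalled enzymes changed sign 82 times. A call was lost in 143 values, all of them from the 29 calls, so 2147 is not their base. It was gained in 65 values of enzymes not called before. The causes of these moves were not tested, apart from fewer genes or libraries where a setting removes them.

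The 16 enzymes called in ePRAoe against Wnt7acre numbered 10 with only those 2 genotypes, and the 1998 genes called numbered 1063. In ePRBoe against Wnt7acre, the 12 enzymes numbered 6 with a mean of at least 5 FPKM and 21 with no run term, and the 1098 genes numbered 653 and 1786. In ePRBoe against ePRAoe, the 1 enzyme (Ugt1a7c) numbered 0 with no filter, with a mean of at least 5 FPKM (which leaves it untested), with median-of-ratios size factors, after quantile normalization and after rescaling to TPM, and 6 with only the 2 genotypes; the 40 genes numbered 19 with no filter, 22 with median-of-ratios size factors, 16 after quantile normalization, 7 with no run term and 453 with only the 2 genotypes.

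Leaving out 1 library at a time gave 7–20 enzymes and 747–2719 genes in ePRAoe, the lowest without ePRAoe replicate 2 or Wnt7acre replicate 3. It gave 1–18 enzymes and 232–1602 genes in ePRBoe, again lowest without those libraries, and 0–8 enzymes and 0–546 genes between ePRBoe and ePRAoe, highest without ePRAoe replicate 1 or Wnt7acre replicate 1. Of the called enzymes, 6 in ePRAoe kept the call without any 1 library, by limma (Dhrs7, Sult1d1, Cyp2s1, Dhrs13, Aldh1a2 and Hsd17b2). In ePRBoe 0 kept it. Leaving out either the ePRAoe or the Wnt7acre library of a run gave the same ePRAoe difference from Wnt7acre, so these fits are not all separate checks.

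The shared replicate numbers did not pair the libraries: same-numbered deviations from the group means correlated between -0.23 and 0.17. With the replicate block in place of the run, 10 enzymes and 1113 genes were called in ePRAoe, 17 enzymes and 1437 genes in ePRBoe, and 1 enzyme and 4 genes between ePRBoe and ePRAoe. Setting each library against each other genotype, its own number correlated best in 4 of 18 cases.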

Other observations

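ePRAoe replicate 1, from run 3, stood apart among retinoid enzymes. It held the lowest Cyp26a1 of all 9 libraries (18.7 FPKM, against 204 and 444 FPKM in ePRAoe replicates 2 and 3), the lowest Rdh12 (0.091 FPKM) and the highest Rdh10, Rdh1 and Rdh9 of its genotype (103, 6.26 and 16.6 FPKM). Its summed enzyme level was the lowest of all libraries, at 1282 FPKM or 0.434% of its total FPKM. Wnt7acre replicate 1, from the same run, held the lowest Cyp2s1 (16.5 FPKM) and Hsd17b2 (1.9 FPKM) of its genotype.

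Ugt8a, which makes galactosylceramide, held 8.47, 2.32 and 1.26 FPKM in ePRBoe, 0.02, 0.14 and 0.301 FPKM in ePRAoe, and 0, 0.04 and 0.02 FPKM in Wnt7acre. ePRBoe lay above both other genotypes, and the difference from Wnt7acre of 2.03 ± 0.59 on the log2(FPKM + 1) scale did not pass (limma, adjusted p = 0.0764). Aldh2, the mitochondrial acetaldehyde dehydrogenase, held 11.9, 10.1 and 9.22 FPKM in ePRBoe, 5.34, 5.86 and 5.58 FPKM in ePRAoe, and 2.58, 4.87 and 5.66 FPKM in Wnt7acre. Its ePRBoe libraries also lay above all others, at 0.92 ± 0.24 over Wnt7acre (adjusted p = 0.0535). Both genes were picked after their values were seen.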
